A study of Mus musculus with 6 samples.

Results

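Collagen chains, the polypeptides that collagen molecules are built from, were examined as a family in muscle stem cells of young and old mice. The set held every gene whose symbol has the form Col, a number, the letter a and a number, apart from chains that the rule left out and that are not analysed here. It came to 32 of the 12067 genes in the deposited table, and no member was chosen by its level or its change. RNA was measured in 6 libraries in 3 groups of 2, all from male C57BL/6 mice with no other allele or agent named in the labels. Cells of limb muscle were sorted as CD45-, CD31-, Sca1- and VCAM+, a gate for quiescent satellite cells, stained with 5 uM ThiolTracker Violet, a dye for reduced glutathione (GSH), and sorted again. Young libraries held all stained cells of 1 animal each at 4 months, nearly all of them GSH-high per the labels. Old libraries came from 2 pooled animals each at 23 months and held either the GSH-high or the GSH-low part of the stained cells. Whether an old GSH-high library and an old GSH-low library came from the same pool is not stated in the sources used here. An age comparison therefore sets a whole population of 1 mouse against a fraction of 2 mice, and age, fraction and pooling cannot be told apart in it.

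Collagen chains wind around each other to form a long helix, and each chain belongs to a type with its own assembly. Fibrillar types (I, II, III, V, XI and XXVII) form the cables of tendon, skin and connective tissue. Type IV forms the mesh of basement membranes, and type VI forms beaded microfibrils that anchor the cell's basement membrane to the matrix around it. Satellite cells lie under the basement membrane of the muscle fibre and make part of this matrix themselves. Type V collagen made by satellite cells is known to bind the calcitonin receptor Calcr and to help hold the cells in quiescence.

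The regions before the start sites of 6 chains are shown as examples of chains that fell or rose from young to old cells, taken from windows that overlap no annotated exon. Each stretch is the 250 bases before the RefSeq start site in GRCm38.p6, written 5′ to 3′ on the gene's strand. Capitals mark every match to 4 short motifs on either strand: the TATA box (TATAAA), the CCAAT box (CCAAT), the GC box (GGGCGG) and the AP-1 site (TGANTCA), none of which overlaps another here. Col3a1, Col5a1 and Col5a3 were lower in both old fractions than in young cells.
Col3a1: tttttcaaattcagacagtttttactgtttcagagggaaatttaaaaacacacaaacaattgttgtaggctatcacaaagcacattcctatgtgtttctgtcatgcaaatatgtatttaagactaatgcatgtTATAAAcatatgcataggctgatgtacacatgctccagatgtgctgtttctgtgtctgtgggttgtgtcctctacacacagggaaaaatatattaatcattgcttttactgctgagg
Col5a1: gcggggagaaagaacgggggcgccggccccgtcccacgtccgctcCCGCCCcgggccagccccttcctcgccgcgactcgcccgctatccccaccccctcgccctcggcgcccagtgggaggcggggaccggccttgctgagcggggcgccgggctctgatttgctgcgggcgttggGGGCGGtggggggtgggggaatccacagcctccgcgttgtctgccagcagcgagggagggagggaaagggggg
Col5a3: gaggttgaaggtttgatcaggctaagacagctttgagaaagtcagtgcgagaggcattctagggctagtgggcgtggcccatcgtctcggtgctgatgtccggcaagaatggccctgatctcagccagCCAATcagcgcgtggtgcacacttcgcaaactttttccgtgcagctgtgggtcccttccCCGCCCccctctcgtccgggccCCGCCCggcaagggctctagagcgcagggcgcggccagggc
Col8a1 and Col4a6 were higher in both old fractions than in young cells, and Col11a2 was highest in the old GSH-low libraries.
Col8a1: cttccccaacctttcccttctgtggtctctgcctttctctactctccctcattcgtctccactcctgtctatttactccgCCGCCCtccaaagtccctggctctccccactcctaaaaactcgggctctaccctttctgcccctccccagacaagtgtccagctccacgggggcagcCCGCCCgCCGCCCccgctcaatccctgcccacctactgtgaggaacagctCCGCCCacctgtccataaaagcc
Col4a6: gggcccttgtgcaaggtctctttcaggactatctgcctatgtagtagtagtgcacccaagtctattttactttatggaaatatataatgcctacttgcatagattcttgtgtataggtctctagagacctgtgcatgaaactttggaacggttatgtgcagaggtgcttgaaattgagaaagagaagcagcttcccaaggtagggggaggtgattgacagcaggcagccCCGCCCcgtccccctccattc
Col11a2: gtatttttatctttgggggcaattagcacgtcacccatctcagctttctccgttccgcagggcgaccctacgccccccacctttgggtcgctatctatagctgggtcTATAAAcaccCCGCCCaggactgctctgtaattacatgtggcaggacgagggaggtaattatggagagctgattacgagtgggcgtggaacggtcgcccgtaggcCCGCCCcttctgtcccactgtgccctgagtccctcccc
The windows lie at chr1:45311288-45311537 on the plus strand for Col3a1, chr2:27886175-27886424 on the plus strand for Col5a1, chr9:20815068-20815317 on the minus strand for Col5a3, chr16:57754738-57754987 on the minus strand for Col8a1, chrX:141474077-141474326 on the minus strand for Col4a6 and chr17:34038888-34039137 on the plus strand for Col11a2. RefSeq had a window for 25 of the 32 chains, 27 windows in all. The GC box was present in 17 of the 27 and in 32.7% of all 32851 windows. The CCAAT box was present in 9 of the 27 (33.8% of all windows), the TATA box in 4 (12.4%) and the AP-1 site in 1 (6.75%). The Col8a1 window held 4 GC boxes, and the windows of Col3a1 and Col11a2 held 1 TATA box each. A match is a string of letters and was not tested for binding.

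Reads recovered from the deposited RPKM came to 46.96 to 68.73 M per library. The share of reads on collagen chains was 0.703% and 0.956% in young, 0.462% and 0.472% in old GSH-high and 0.530% and 0.543% in old GSH-low libraries. RPKM is the read number per kilobase of exon, scaled to library size, so that chains of different length can be set side by side. Satellite cell genes were present in every library, with Pax7 between 7.64 and 12.6 RPKM and Myod1 between 594 and 877 RPKM. The 10 satellite cell markers summed to 3867 and 3639 RPKM in young, 3537 and 3366 in old GSH-high and 3006 and 2885 in old GSH-low libraries. Their median log2 fold change from old GSH-high to old GSH-low was -0.157. By the test given below 1 of the 10, Pax7, rose there (3.69% of all genes) and 0 fell (1.69%). The call of Pax7 was lost when any 1 old library was left out. Myod1 passed at an unadjusted p under 0.05 only, and limma-voom called 1 fall. Genes of surface proteins that the sort gate excludes were still read, at levels that differed between the groups. Pecam1, the CD31 gene, stood at 1.81 to 3.02 RPKM in young, 6.67 to 6.86 in old GSH-high and 0.880 to 1.41 in old GSH-low libraries. Markers of other cell types moved with the groups. The 9 tenocyte markers (Scx, Tnmd, Mkx, Thbs4, Fmod, Chad, Cilp2, Comp and Kera) summed to 36.0 and 38.4 RPKM in young, 642 and 812 in old GSH-high and 2676 and 3067 in old GSH-low libraries. All 9 rose from old GSH-high to old GSH-low by the test given below (3.69% of all genes), and none was at 0 in any library. The 12 fibro-adipogenic progenitor markers summed to 812 and 818, 1107 and 1172, and 1456 and 1607 RPKM in the same order of groups. Of them, 10 rose from young to old GSH-high (15.1% of all genes). Between the old fractions 2 of these 12 rose (3.69% of all genes) and 2 fell (1.69%), with a median log2 fold change of -0.0394. The sort gate excludes Sca1+ cells, among which these progenitors are usually found. Ly6a, the Sca1 gene, stood at 9.20 and 8.42 RPKM in young, 24.8 and 27.9 in old GSH-high and 6.55 and 4.93 in old GSH-low libraries. The 12 endothelial markers summed to 41.6 and 49.9, 87.7 and 88.0, and 29.7 and 36.3 RPKM, and were highest in old GSH-high. The fat cell markers summed to 0.365 to 0.405, 48.9 to 69.8 and 2.21 to 3.34 RPKM over the 2 libraries of each group, and the macrophage markers to 10.1 to 11.6, 42.2 to 53.4 and 53.5 to 59.8. The Schwann and glial markers summed to 84.9 to 97.6, 112 to 119 and 126 to 139 RPKM, the pericyte and smooth muscle markers to 186 to 195, 140 to 162 and 158 to 162, and the myofibre markers to 44.36 to 44.41, 24.6 to 26.9 and 52.5 to 53.5. Of the fat cell markers, Adipoq, Cfd and Cidec were read as 0 in 1 young library each. In bulk RNA, fewer cells of a type and less RNA per cell cannot be told apart.

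Across the family, the old GSH-low cells had more RNA of several fibril chains than the old GSH-high cells, and the 6 chains highest in the young cells (Col3a1, Col4a1, Col6a1, Col5a3, Col5a1 and Col4a2) were lower in both old fractions. A chain was called changed at an adjusted p under 0.05 (limma-trend on log2(RPKM + 1), Benjamini-Hochberg over all 10609 genes tested). Of the 32 chains, 28 had at least 1 RPKM in 2 libraries and were tested, 19 of them with at least 1 RPKM in all 6 libraries. Of the other 9, Col4a5, Col6a3, Col8a2 and Col11a2 reached 1 RPKM in the 4 old libraries alone, Col4a6 in 3 old libraries, Col13a1 and Col22a1 in old GSH-low alone, Col6a6 in young alone and Col23a1 in 5 libraries. A chain kept by its high group was selected towards a difference, so that the counts describe the chains and carry no test of their own. Col23a1 was still called in no comparison. Between the old fractions 9 of 28 were called, beside 5.38% of all genes, and all 9 rose in GSH-low, beside 3.69% of all genes. By limma-trend no chain fell in GSH-low, beside 1.69% of all genes, with 1 fall at an unadjusted p under 0.05 (Col4a6) and 0 calls down by limma-voom on the recovered reads. In old GSH-high against young 18 were called (28.8% of all genes), with 8 rises (15.1%) and 10 falls (13.7%). In old GSH-low against young 20 were called (36.8% of all genes), with 11 rises (18.1%) and 9 falls (18.7%). The comparisons share libraries, so that their calls are not independent of each other. Without the filter, all 32 chains gave 9 calls between the old fractions (5.7% of 12067 genes), all of them rises (3.94%, with 1.76% of genes falling). They gave 10 rises and 11 falls from young to old GSH-high (15.1% and 12.5%) and 13 rises and 10 falls from young to old GSH-low (19.0% and 16.9%). The median log2 fold change of the 28 chains was 0.089, -0.146 and -0.106 in the 3 comparisons, beside -0.0108, -0.0037 and -0.0209 for all genes. Scaling the libraries to the same RPKM sum moved the split of all genes called, with 70.4% in place of 52.4% of calls higher in old GSH-high than in young and 65.6% in place of 49.2% higher in old GSH-low, while the chains then gave 8 rises with 9 falls and 11 rises with 9 falls.

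**Figure D1:**
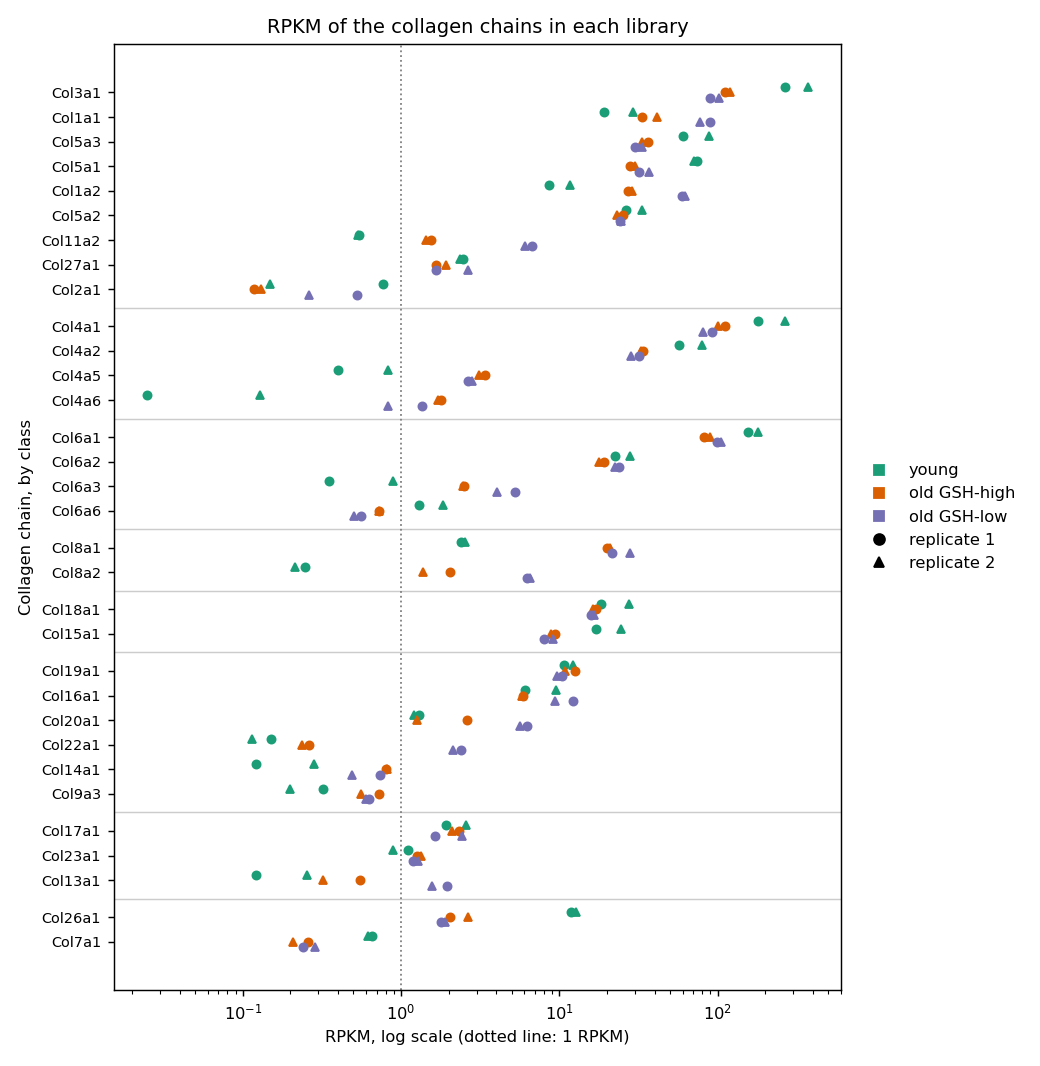
RPKM of the 32 collagen chains (log scale) in the 6 libraries, grouped by class and ordered by level within a class. Each point is 1 library, colour gives the group and shape the replicate number. Col3a1, Col4a1 and Col6a1 lie highest in the young libraries, and Col1a1, Col1a2, Col11a2 and Col8a2 lie highest in the old GSH-low libraries.

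Type III, a collagen of fine fibrils, led the young cells. Col3a1 stood at 268 and 372 RPKM in the young libraries, 112 and 120.0 in old GSH-high and 89.3 and 101 in old GSH-low. Both young libraries lay above all 4 old ones. Col3a1 fell from young to old GSH-high, log2 fold change -1.44 ± 0.15 (SE, limma-trend adjusted p = 0.000194), and further from young to old GSH-low, log2 fold change -1.72 ± 0.15 (SE, limma-trend adjusted p = 5.06e-05). Between the old fractions its log2 fold change was -0.28 ± 0.15 (95% interval -0.62 to 0.05), which did not pass the test. Col3a1 made up 29.0% of the summed RPKM of the chains in young cells, 19.4% in old GSH-high and 14.0% in old GSH-low, and it ranked first in young and in old GSH-high but second in old GSH-low, behind Col6a1. The gene lies at chr1:45311538-45349706.

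Type I, the main collagen of tendon and bone, went the other way. Col1a1 stood at 19.1 and 29.0 RPKM in young, 33.1 and 41.6 in old GSH-high and 89.3 and 77.6 in old GSH-low libraries. Its partner Col1a2 stood at 8.57 and 11.7, 27.1 and 28.5 and 59.5 and 61.8 RPKM. The groups of either chain followed each other upward from young to old GSH-high to old GSH-low without overlap. From old GSH-high to old GSH-low, Col1a1 rose, log2 fold change 1.14 ± 0.18 (SE, limma-trend adjusted p = 0.00646), and so did Col1a2, log2 fold change 1.10 ± 0.13 (SE, limma-trend adjusted p = 0.00114). Against young, the rises in old GSH-low were larger, 1.78 ± 0.18 for Col1a1 and 2.48 ± 0.13 for Col1a2. The rise of Col1a1 from young to old GSH-high, log2 fold change 0.64 ± 0.18 (SE, limma-trend adjusted p = 0.0306), depended on single libraries: its adjusted p was 0.124 without young replicate 1 and 0.169 without old GSH-high replicate 2, and its rise between the old fractions had an adjusted p of 0.0559 without old GSH-low replicate 1. The summed tenocyte, fibro-adipogenic progenitor, Schwann and macrophage markers had the same order of groups as type I, and their part in these values was not tested.

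Ratios within a library do not depend on the scaling between libraries, and they showed a shift in the mix of fibril chains. The ratio of Col3a1 to Col1a1 was 14.0 and 12.8 in young, 3.37 and 2.88 in old GSH-high and 0.999 and 1.31 in old GSH-low libraries. The 3 groups did not overlap. The ratio of Col1a2 to Col1a1, whose products join in the type I molecule, was 0.448 and 0.403 in young and 0.667 to 0.819 in the 4 old libraries. The absolute value of such a ratio depends on the exon length used, 12426 bases for Col1a2 and 6563 for Col1a1, but its change between libraries does not.

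**Figure D2:**
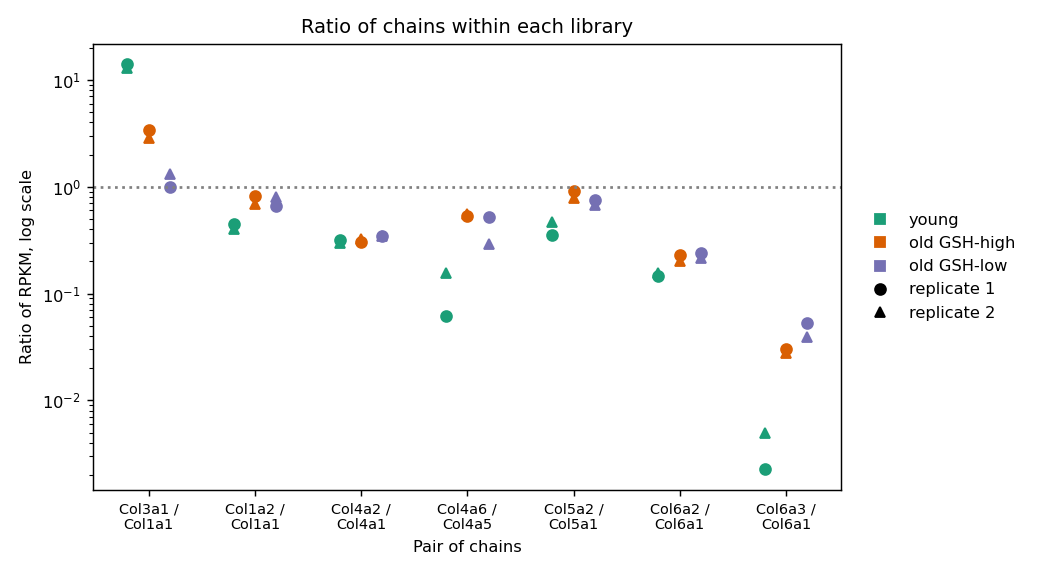
Ratio of the RPKM of 2 chains within each library (log scale) for 7 pairs. Each point is 1 library, colour gives the group and shape the replicate number, and the dotted line marks equal levels. The ratio of Col3a1 to Col1a1 falls from 14.0 and 12.8 in young to 0.999 and 1.31 in old GSH-low libraries, while that of Col4a2 to Col4a1 stays between 0.299 and 0.347.

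Type V, a thin-fibril collagen that sits inside type I fibrils, split by chain. Col5a1 stood at 74.3 and 70.7 RPKM in young, 27.8 and 29.9 in old GSH-high and 31.9 and 36.6 in old GSH-low libraries. Col5a3, another chain of this type, stood at 60.5 and 87.9, 36.1 and 33.1 and 29.8 and 33.5 RPKM. For either chain both young libraries lay above all old ones. Col5a1 fell from young to old GSH-high, log2 fold change -1.30 ± 0.09 (SE, limma-trend adjusted p = 2.93e-05), and to old GSH-low, log2 fold change -1.06 ± 0.09 (SE, limma-trend adjusted p = 5.96e-05). Col5a3 fell as well, -1.06 ± 0.16 and -1.18 ± 0.16. Col5a2, which joins Col5a1 in the common form of type V, stood at 26.2 and 33.4, 25.2 and 23.2 and 24.2 and 24.6 RPKM and did not pass the test in any comparison (log2 fold change -0.28 ± 0.11 and -0.27 ± 0.11 against young); without young replicate 1 its adjusted p was 0.00981 and 0.00813. The ratio of Col5a2 to Col5a1 was 0.353 and 0.472 in young and 0.673 to 0.905 in the old libraries. The ratio of Col5a3 to Col5a1, added after the values were seen, was 0.815 and 1.24 in young libraries. It was 1.30 and 1.11 in old GSH-high and 0.934 and 0.915 in old GSH-low libraries, so that young overlapped both old groups. The windows before Col5a1 and Col5a3, shown above, each held 2 GC boxes, and that of Col5a3 held 1 CCAAT box.

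The other fibrillar chains were of low level. Col11a2, a cartilage fibril chain, stood at 0.543 and 0.537 RPKM in young, 1.54 and 1.43 in old GSH-high and 6.75 and 6.09 in old GSH-low libraries. The young libraries lay below the old GSH-high ones, and these below the old GSH-low ones. Col11a2 rose from old GSH-high to old GSH-low, log2 fold change 1.58 ± 0.10 (SE, limma-trend adjusted p = 5.03e-05), and its fitted rise from young to old GSH-high was 0.69 ± 0.10 with a pseudocount of 1 and 1.46 by limma-voom. It passed the filter through the old libraries alone. Col27a1, a cartilage chain, ranged from 1.67 to 2.65 RPKM over the 6 libraries and did not pass the test in any comparison. Col2a1, the main cartilage chain, was below the filter at 0.117 to 0.767 RPKM.

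Type IV, the mesh of the basement membrane, divided by gene pair. Col4a1 stood at 178 and 265 RPKM in young, 111 and 99.7 in old GSH-high and 92.1 and 81.3 in old GSH-low libraries. Col4a2 stood at 56.9 and 79.2, 33.9 and 32.6 and 31.9 and 28.2 RPKM. Both young libraries lay above all old libraries for either chain. Col4a1 fell from young to old GSH-high, log2 fold change -1.04 ± 0.17 (SE, limma-trend adjusted p = 0.00221), and to old GSH-low, -1.32 ± 0.17, and Col4a2 fell by 0.99 and 1.14 on the log2 scale. The ratio of Col4a2 to Col4a1 kept to 0.299 to 0.347 in the 6 libraries. The 2 genes lie head to head on chromosome 8 (chr8:11198423-11312826 on the minus strand and chr8:11312805-11449287 on the plus strand) and share 22 bases. The endothelial markers summed highest in old GSH-high, and their part in these values was not tested.

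The minor type IV chains moved the opposite way from a low start. Col4a5 stood at 0.399 and 0.823 RPKM in young, 3.37 and 3.09 in old GSH-high and 2.63 and 2.80 in old GSH-low libraries. Col4a6 stood at 0.0248 and 0.128, 1.78 and 1.70 and 1.36 and 0.821 RPKM, on 12 and 60 reads in the young libraries and 315 to 983 in the old. Old and young libraries did not overlap for either chain. Both chains passed the filter through old libraries alone, so that a difference from young was built into their being tested. The fitted rise of Col4a5 from young was 1.40 ± 0.13 to old GSH-high and 1.22 ± 0.13 to old GSH-low with a pseudocount of 1, and 2.50 and 2.24 by limma-voom. For Col4a6 it was 1.35 ± 0.14 and 0.95 ± 0.14, and 4.93 and 4.21 by limma-voom, which adds less to low values than the pseudocount of 1 does. The ratio of Col4a6 to Col4a5, a pair added after the values were seen, was 0.0620 and 0.156 in young and 0.293 to 0.551 in old libraries. Their RefSeq start sites lie 1343 bases apart on opposite strands of the X chromosome, and the window before Col4a6, shown above, held 1 GC box.

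Type VI, the microfibril collagen of the muscle fibre's surface, again split by chain. Col6a1 stood at 155 and 179 RPKM in young, 82.0 and 89.3 in old GSH-high and 99.6 and 104 in old GSH-low libraries, and the young libraries lay above the old ones. Col6a1 fell from young to old GSH-high, log2 fold change -0.95 ± 0.10 (SE, limma-trend adjusted p = 0.000209), and to old GSH-low, -0.70 ± 0.10. Col6a2 stood at 22.5 and 27.8, 19.0 and 17.9 and 23.8 and 22.5 RPKM. It fell from young to old GSH-high, log2 fold change -0.42 ± 0.11 (SE, limma-trend adjusted p = 0.0188), a call that was lost when either old GSH-high library was left out (0.0719 for replicate 1, 0.114 for replicate 2) or the libraries were scaled to the same RPKM sum (0.0995). Between the old fractions the log2 fold change of Col6a2 was 0.31 ± 0.11, with a limma-trend adjusted p of 0.157 over 6 libraries and 0.04 and 0.0402 without young replicate 1 or replicate 2. The ratio of Col6a2 to Col6a1 was 0.146 and 0.156 in young and 0.200 to 0.238 in old libraries.

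The longer type VI chain Col6a3 stood at 0.349 and 0.895 RPKM in young, 2.51 and 2.46 in old GSH-high and 5.28 and 4.05 in old GSH-low libraries. The 3 groups did not overlap and followed each other upward. The chain passed the filter through the old libraries alone, so that a difference from young was built in. Its fitted rise from young was 1.12 ± 0.17 to old GSH-high and 1.82 ± 0.17 to old GSH-low with a pseudocount of 1, and 2.16 and 3.06 by limma-voom. Its rise between the old fractions, log2 fold change 0.69 ± 0.17 (SE, limma-trend adjusted p = 0.0495), was lost in 7 of 13 other settings, among them each of the 4 old libraries left out (adjusted p 0.0612 to 0.275). Its ratio to Col6a1 went from 0.00226 and 0.00500 in young to 0.0276 and 0.0306 in old GSH-high and 0.0388 and 0.0530 in old GSH-low libraries. Col6a6 went down instead, at 1.29 and 1.85, 0.721 and 0.730 and 0.555 and 0.501 RPKM, with log2 fold changes of -0.57 ± 0.12 and -0.74 ± 0.12 against young (-1.09 and -1.55 by limma-voom), the first with an adjusted p of 0.0523 without old GSH-high replicate 1. It passed the filter through the young libraries alone.

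**Figure D3:**
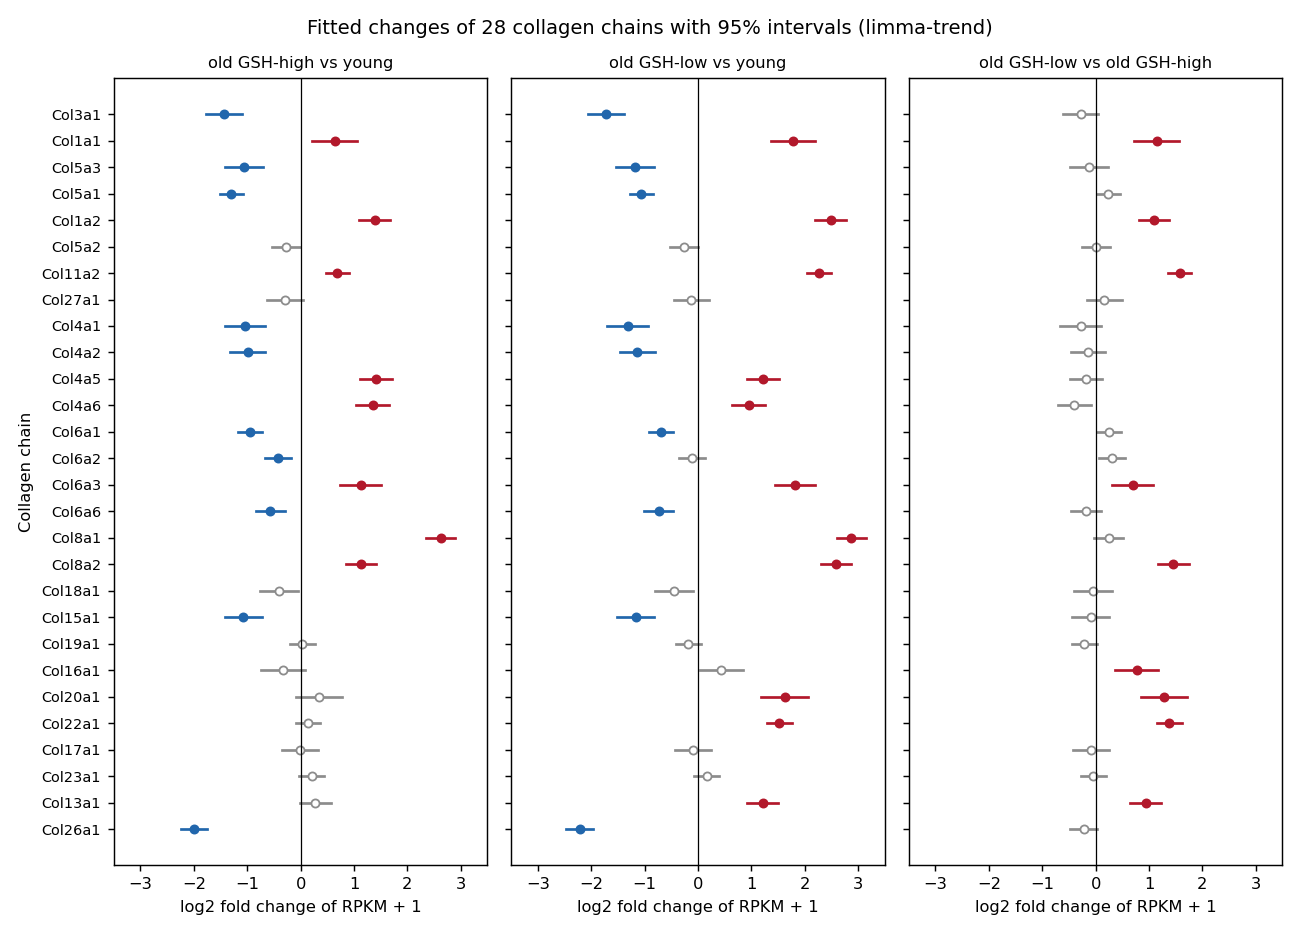
Fitted log2 fold change of RPKM + 1 for the 28 chains tested, with 95% intervals, in the 3 comparisons. Filled points passed the test at an adjusted p under 0.05 (red higher, blue lower) and open points did not. All 9 filled points between the old fractions lie right of 0, while the age comparisons have filled points on both sides.

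Type VIII, a short-chain collagen of hexagonal lattices found around vessels and in the cornea, was higher in old cells. Col8a1 stood at 2.38 and 2.55 RPKM in young, 19.9 and 20.9 in old GSH-high and 21.4 and 27.8 in old GSH-low libraries. Its ratio of mean RPKM was 8.27 for old GSH-high to young and 9.97 for old GSH-low to young. Col8a1 rose from young to old GSH-high, log2 fold change 2.63 ± 0.12 (SE, limma-trend adjusted p = 3.22e-06), and to old GSH-low, log2 fold change 2.87 ± 0.12 (SE, limma-trend adjusted p = 8.87e-07), and its difference between the old fractions was 0.25 ± 0.12 (95% interval -0.02 to 0.52), which did not pass the test. Col8a2 stood at 0.246 and 0.212, 2.04 and 1.38 and 6.20 and 6.55 RPKM and separated all 3 groups. It rose from old GSH-high to old GSH-low, log2 fold change 1.46 ± 0.12 (SE, limma-trend adjusted p = 0.000251), and its fitted rise from young to old GSH-high was 1.13 ± 0.12 (2.88 by limma-voom), with the filter passed through the old libraries alone. The ratio of Col8a2 to Col8a1, added after the values were seen, was 0.0832 and 0.103 in young, 0.0663 and 0.102 in old GSH-high and 0.236 and 0.290 in old GSH-low libraries. The window before Col8a1 shown above was the one with 4 GC boxes.

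Types XV and XVIII, which lie at the outer face of basement membranes and release endostatin-like fragments, differed in how clear their change was. Col15a1 stood at 17.0 and 24.6 RPKM in young, 9.43 and 8.91 in old GSH-high and 7.95 and 9.16 in old GSH-low libraries, the young libraries above the old ones. Col15a1 fell from young to old GSH-high, log2 fold change -1.08 ± 0.15 (SE, limma-trend adjusted p = 0.00115), and to old GSH-low, -1.17 ± 0.15. Col18a1 stood at 18.2 and 27.5, 17.1 and 16.2 and 15.7 and 16.5 RPKM, young replicate 1 just above the old libraries and young replicate 2 clear of them. Its log2 fold change from young to old GSH-high was -0.41 ± 0.16, with a limma-trend adjusted p of 0.0871 that became 0.00151 without young replicate 1. For old GSH-low against young it was -0.45 ± 0.16, with an adjusted p of 0.0531 that became 0.000849 without the same library and 0.0333 by limma-voom.

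Fibril-associated chains, which decorate the surface of fibrils, were among those higher in the old GSH-low cells. Col22a1, a chain of the junction between muscle and tendon, stood at 0.150 and 0.115 RPKM in young, 0.262 and 0.237 in old GSH-high and 2.39 and 2.13 in old GSH-low libraries. Both old GSH-low libraries lay above all others, and the chain passed the filter through that group alone, so that a difference was built into its being tested. Its fitted rise from old GSH-high to old GSH-low was 1.38 ± 0.10 with a pseudocount of 1 and 3.17 by limma-voom, and its ratio of mean RPKM was 9.04. By limma-voom it also rose from young to old GSH-high (adjusted p 0.022). Col20a1 stood at 1.30 and 1.21, 2.62 and 1.25 and 6.20 and 5.65 RPKM, the old GSH-low libraries above the rest. It rose from old GSH-high to old GSH-low, log2 fold change 1.28 ± 0.19 (SE, limma-trend adjusted p = 0.00452), and the 2 old GSH-high libraries differed by more than the young ones did: without replicate 2 of that group its log2 fold change from young to old GSH-high was 0.69 with an adjusted p of 0.00837, in place of 0.34 ± 0.19 and 0.211.

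Col16a1, which links fibrils to other matrix, stood at 6.07 and 9.45 RPKM in young, 5.88 and 5.80 in old GSH-high and 12.1 and 9.31 in old GSH-low libraries. Young replicate 2 overlapped the old GSH-low libraries. Its rise between the old fractions, log2 fold change 0.77 ± 0.18 (SE, limma-trend adjusted p = 0.0442), was lost in 8 of 14 other settings, with adjusted p up to 0.254 without old GSH-low replicate 1. Against young its call appeared without single libraries (adjusted p 0.0199 for a fall to old GSH-high without young replicate 1, 0.00614 for a rise to old GSH-low without young replicate 2). Col19a1, a chain of the basement membrane zone, ranged from 9.65 to 12.6 RPKM and did not pass the test in any comparison. Col14a1 (0.122 to 0.820 RPKM) and Col9a3 (0.199 to 0.724 RPKM) were below the filter, and without it rose from young to both old fractions, with log2 fold changes of 0.59 ± 0.11 and 0.42 ± 0.11 for Col14a1 and 0.38 ± 0.10 and 0.36 ± 0.10 for Col9a3. Of the exon bases of Col9a3, 6.07% are shared with Tcfl5, and with the strand of the libraries not stated their reads could be split either way.

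Transmembrane collagens were low in all libraries. Col13a1, a chain known from the neuromuscular junction, stood at 0.121 and 0.255 RPKM in young, 0.552 and 0.319 in old GSH-high and 1.95 and 1.56 in old GSH-low libraries. Like Col22a1 it passed the filter through the old GSH-low libraries alone, which lay above the others. Its fitted rise from old GSH-high to old GSH-low was 0.94 ± 0.13 with a pseudocount of 1 and 2.04 by limma-voom, which also called a rise from young to old GSH-high (adjusted p 0.0343). Col17a1, a hemidesmosome chain, ranged from 1.63 to 2.56 RPKM and Col23a1 from 0.887 to 1.34 RPKM, and neither passed the test in any comparison. Outside this class, Col26a1 stood at 11.8 and 12.6 RPKM in young, 2.03 and 2.63 in old GSH-high and 1.78 and 1.90 in old GSH-low. Its young and old libraries did not overlap. It fell from young to old GSH-high, log2 fold change -1.99 ± 0.11 (SE, limma-trend adjusted p = 5.75e-06), and to old GSH-low, log2 fold change -2.22 ± 0.11 (SE, limma-trend adjusted p = 1.87e-06), the largest fitted falls among the 28 chains in these comparisons. Its mean RPKM was 5.24 and 6.65 times as high in young as in old GSH-high and old GSH-low. Col7a1, the chain of anchoring fibrils, was below the filter at 0.209 to 0.654 RPKM, and without the filter fell from young to both old fractions (-0.41 ± 0.09 and -0.37 ± 0.09).

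The young libraries differed from each other in collagen level. Young replicate 2 was above replicate 1 in 22 of the 32 chains and in 15 of the 16 with a mean of at least 5 RPKM, for which the ratio of replicate 2 to replicate 1 ran from 0.951 to 1.56 with a median of 1.38. Over all genes replicate 2 was the higher in 46.0%, with a median ratio of 0.981. The median ratio of replicate 2 to replicate 1 for the same 16 chains was 0.975 in old GSH-high and 1.04 in old GSH-low. Each young library is 1 animal, so that differences between animals and between preparations cannot be told apart there. Of the 10 falls from young to old GSH-high, 8 were called with either young library left out or any old one left out, and Col6a2 and Col6a6 were not.

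Genes that build and cross-link collagen moved with both signs. Of 36 genes on the list, 33 were in the table and 32 were tested. Between these fractions of old cells 5 rose (3.69% of all genes rose), with none falling by limma-trend, none at an unadjusted p under 0.05 and none by limma-voom. Without the filter 33 were tested and 1 fell, Tll1 (0.0488 to 0.809 RPKM), a protease related to Bmp1 that is named after its values were seen. In old GSH-high against young 5 of 32 rose (15.1% of all genes) and 14 fell (13.7%), and from young to old GSH-low 9 rose (18.1%) and 10 fell (18.7%). The 5 rises from young to old GSH-high are thus near the share of all genes that rose there, while the 14 falls are above theirs. The 14 falls became 8 without old GSH-high replicate 1 or replicate 2, and the 5 rises between the old fractions became 3 with a pseudocount of 0.1 or without 1 of 3 old libraries (old GSH-high replicate 1, old GSH-low replicate 1 or 2). The list's median log2 fold change was 0.161, -0.167 and -0.0884 in the order of the comparisons above, beside the values near 0 given for all genes.

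Serpinh1, the chaperone of new collagen in the endoplasmic reticulum, stood at 903 and 971 RPKM in young, 373 and 404 in old GSH-high and 396 and 443 in old GSH-low libraries. It fell from young to old GSH-high, log2 fold change -1.27 ± 0.10 (SE, limma-trend adjusted p = 4.68e-05). Sparc, a collagen-binding glycoprotein, stood at 742 and 617, 195 and 236 and 225 and 284 RPKM and fell likewise, log2 fold change -1.65 ± 0.15 (SE, limma-trend adjusted p = 9.23e-05). These genes shared the direction of Col3a1 and Col4a1, with the young libraries above all old ones. Pcolce2, an enhancer of the protease that trims procollagen, stood at 20.0 and 18.2, 5.58 and 5.79 and 7.14 and 7.14 RPKM and fell from young to old GSH-high, log2 fold change -1.59 ± 0.09 (SE, limma-trend adjusted p = 5.75e-06). Its relative Pcolce stood at 9.34 and 8.35, 13.3 and 13.6 and 22.4 and 22.4 RPKM and rose from old GSH-high to old GSH-low, log2 fold change 0.69 ± 0.09 (SE, limma-trend adjusted p = 0.00176). Against young, the 2 enhancers thus went opposite ways, with Pcolce2 lower and Pcolce higher in every old library. Between the old fractions, both had their higher values in GSH-low, where Pcolce2 passed at an unadjusted p under 0.05 only.

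Lox, the oxidase that starts the cross-linking of collagen and elastin, stood at 15.3 and 21.7 RPKM in young, 126 and 111 in old GSH-high and 149 and 113 in old GSH-low libraries. It rose from young to old GSH-high, log2 fold change 2.64 ± 0.17 (SE, limma-trend adjusted p = 1.69e-05), and to old GSH-low, 2.76 ± 0.17, and the old fractions overlapped. Its relative Loxl4 stood at 0.559 and 0.533, 2.71 and 1.55 and 5.52 and 5.21 RPKM and rose between the old fractions, log2 fold change 1.05 ± 0.16 (SE, limma-trend adjusted p = 0.00492). P3h2, a prolyl hydroxylase, rose there as well, log2 fold change 0.79 ± 0.10 (SE, limma-trend adjusted p = 0.00188). Loxl3 rose between the old fractions, log2 fold change 0.80 ± 0.16 (SE, limma-trend adjusted p = 0.0247), but not without any 1 of the 4 old libraries (adjusted p 0.0502 to 0.169).

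**Figure D4:**
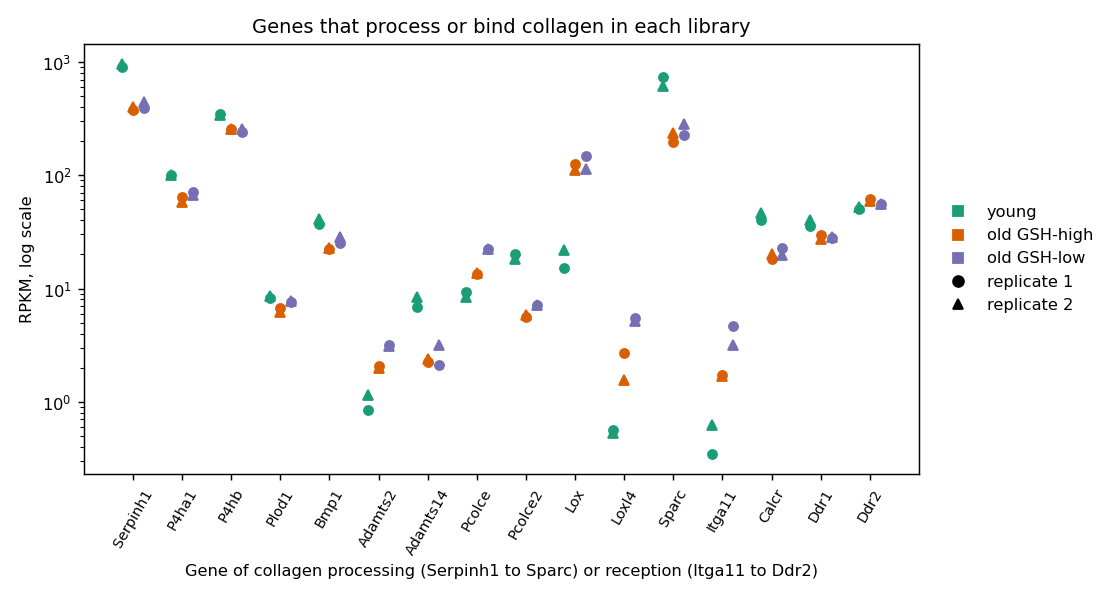
RPKM (log scale) of 16 genes that process or bind collagen in each library, with processing genes from Serpinh1 to Sparc and receptors from Itga11 to Ddr2. Colour gives the group and shape the replicate number. Serpinh1, Sparc and Pcolce2 lie highest in the young libraries, and Lox, Loxl4 and Itga11 lie lowest there.

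Of 13 collagen receptors and uptake genes, 9 were in the table and 8 were tested. Between the old fractions 1 rose (3.69% of all genes) and 1 fell (1.69%). From young to old GSH-high 3 rose (15.1%) and 2 fell (13.7%), of which Ddr1 was lost when either old GSH-high library was left out or the libraries were scaled to the same RPKM sum. From young to old GSH-low 2 rose (18.1%) and 3 fell (18.7%). Calcr, the receptor named above for type V collagen, stood at 40.2 and 46.6 RPKM in young, 18.1 and 20.3 in old GSH-high and 22.9 and 19.8 in old GSH-low libraries. It fell from young to old GSH-high, log2 fold change -1.13 ± 0.11 (SE, limma-trend adjusted p = 0.000145), and to old GSH-low, -0.99 ± 0.11, as Col5a1 and Col5a3 did. Itga11, the integrin subunit for fibrillar collagen, stood at 0.343 and 0.617, 1.72 and 1.70 and 4.63 and 3.15 RPKM. It passed the filter through the old libraries alone, so that a difference from young was built in. Its fitted log2 fold change from young to old GSH-low was 1.71 ± 0.15 with a pseudocount of 1 and 3.06 by limma-voom. Its rise between the old fractions, 0.83 ± 0.15, was lost when 1 of 3 old libraries was left out (adjusted p 0.0684 for old GSH-high replicate 1, 0.0798 for its replicate 2 and 0.0851 for old GSH-low replicate 1) and with a pseudocount of 0.1 (0.0512). Itga1, the subunit for type IV collagen, rose from young to both old fractions, 0.45 ± 0.10 and 0.79 ± 0.10 (1.36 and 2.05 by limma-voom). The first call was lost without old GSH-high replicate 2, where the log2 fold change was 0.43. The gap between the 2 fits is that of a gene of low level. The filter may thus have kept Itga1 through its high libraries and leaned towards a difference from young.

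Adgrg1, an adhesion receptor that binds type III collagen, stood at 1.93 and 3.10 RPKM in young, 5.09 and 5.78 in old GSH-high and 1.51 and 0.866 in old GSH-low libraries. It was highest in old GSH-high and fell from there to old GSH-low, log2 fold change -1.57 ± 0.18 (SE, limma-trend adjusted p = 0.00124). The endothelial markers had the same order of groups, 10 of 12 of them falling from old GSH-high to old GSH-low beside 1.69% of all genes, and their part in the values of Adgrg1 was not tested. Ddr1, a receptor kinase for collagen, fell from young to old GSH-low, log2 fold change -0.40 ± 0.09 (SE, limma-trend adjusted p = 0.00813), a call lost with the libraries scaled to the same RPKM sum (adjusted p 0.0542) and without old GSH-low replicate 1 (0.0615).

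In the tested chains 7 sets of calls occurred over the 3 comparisons, each given beside the share of all 10609 genes with the same set. The most common, in 9 chains (10.8% of all genes), was a fall from young to both old fractions with no call between the fractions (Col3a1, Col4a1, Col4a2, Col5a1, Col5a3, Col6a1, Col6a6, Col15a1 and Col26a1). Next came 6 chains called nowhere (57.8%) and 5 chains that rose in all 3 comparisons (1.81%), Col1a1, Col1a2, Col6a3, Col8a2 and Col11a2, the last 3 of which passed the filter through old libraries alone. Col4a5, Col4a6 and Col8a1 rose from young to both old fractions and were not called between them (9.95%). Col13a1, Col20a1 and Col22a1 rose in both comparisons with old GSH-low (1.23%). Of these, Col4a5 and Col4a6 passed the filter through old libraries alone, and Col13a1 and Col22a1 through old GSH-low alone. Col6a6, in the most common set, passed it through the young libraries alone. For such chains the filter leans towards a difference, so that the shares carry no test of these sets. Col16a1 was called between the old fractions alone (0.104%) and Col6a2 from young to old GSH-high alone (2.3%).

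Markers of several cell types moved in the comparison of old GSH-low with young, in which 11 chains rose and 9 fell, beside 18.1% and 18.7% of all genes. The tenocyte markers rose in 9 of 9, the macrophage markers in 6 of 6 and the Schwann and glial markers in 6 of 7, the last in 4 of 7 without old GSH-low replicate 1. The fibro-adipogenic progenitor markers rose in 9 of 12, and 1, Ly6a, fell, a call lost without old GSH-low replicate 2. The pericyte and smooth muscle markers rose in 5 of 8 with 1 fall, the myofibre markers in 4 of 6 with 1 fall and the fat cell markers in 2 of 3. The fat cell markers summed to 0.365 and 0.405 RPKM in young, so that those tested passed the filter through old libraries alone. A difference was thus built into their being tested, and other low markers may have been kept in the same way. The endothelial markers fell in 6 of 12 and rose in 0, with a median log2 fold change of -0.364. The satellite cell markers fell in 4 of 10 and rose in 1, and without old GSH-low replicate 1 they fell in 2, with Itga7 and Sdc4 lost. The part of these cells in the chains' values was not tested.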

How the data were processed

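RNA of 6 libraries of sorted mouse muscle stem cells was primed with oligo(dT) and read as 150-base single ends by Illumina sequencing, per the labels' protocols. The authors deposited RPKM values (reads per kilobase of exon, scaled to library size) for 12067 genes. Trim Galore, STAR, featureCounts of Subread and edgeR are named, without versions, with mm10/GRCm38 in the submitters' processing notes. The strand of the libraries is not given in the sources used here. Divided by 1 constant per library and gene, the values were whole reads for 12065 genes (99.98%, within 0.02 reads plus a relative tolerance of 3e-07), among them all 32 collagen chains. For 178 genes the recovered number was multiplied by a whole factor from the GENCODE M21 exon length. The constants follow library sizes scaled between samples, so that depth and scaling are those of the authors. The deposited table holds no 0: 230 values, none in a collagen chain, looked like replaced zeros.

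Genes with at least 1 RPKM in 2 or more libraries (10609, with 1458 left out) were fitted as log2(RPKM + 1) with limma-trend (limma 3.58.1, R 4.3.3). The model had 1 mean for each of the 3 groups and used all 6 libraries, which leaves 3 residual degrees of freedom. Tests were two-sided, with Benjamini-Hochberg adjustment over all genes tested and a threshold of 0.05. The added 1 shrinks the changes of low genes. The labels name young replicates as single animals and old ones as pools. Every p-value rests on the spread between the 2 libraries of a group, pooled over the 3 groups and drawn towards that of genes of like level. A p-value between the old fractions thus also carries the spread of the young libraries. The collagen chains, the gene lists and the tests were chosen with earlier results of these data known. Every chain is named. Chains called in a comparison and the 6 of highest mean level are given for each library, the others by their range. Up to 4 called members per list and comparison are named in order of p, and marker genes only as markers. Of 9 partner ratios, 6 were planned and 3 (Col4a6 to Col4a5, Col8a2 to Col8a1, Col5a3 to Col5a1) were added after the values were seen. On simulated data the fit was tested before use. Alternatives were a pseudocount of 0.1, no filter or a filter of 5 RPKM, other scalings, limma-voom on the recovered reads, a fit to only the 4 libraries compared, a replicate block, and fits that leave out 1 library. Promoter windows came from RefSeq in GRCm38.p6, and gene positions and exon lengths from GENCODE M21, found for all 32 chains. Python 3.11.15, numpy 2.4.6, pandas 2.3.3 and matplotlib 3.10.9 were used.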

Additional observations from a re-analysis of the deposited data

How the results depend on the processing

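No called chain changed its sign in any setting. Of the calls, 6 of 9 between the old fractions, 15 of 18 from young to old GSH-high and 20 of 20 from young to old GSH-low were kept in every setting in which the chain was tested. With a filter of 5 RPKM in 2 libraries, 5 chains were called between the old fractions in place of 9, since 3 of the 9 were not tested there and Col16a1 was lost. With 1 library left out, 6 to 10 chains were called between the old fractions, 16 to 20 from young to old GSH-high and 20 to 22 from young to old GSH-low. Over all genes, 571 were called between the old fractions, against 274 with the filter of 5 RPKM, 312 to 371 without an old library and 862 to 864 without a young library or both. From young to old GSH-high 3051 were called, against 1493 and 1816 without old GSH-high replicate 1 or 2, and from young to old GSH-low 3901, against 2068 without old GSH-low replicate 1.

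Replicate numbers were not taken as pairs: deviations of same-numbered libraries correlated at -0.142 between young and old GSH-high, -0.263 between young and old GSH-low and 0.0695 between the old fractions. With the replicate number as a block, 7, 18 and 20 chains were called in the 3 comparisons, and 479, 2559 and 3350 of all genes in place of 571, 3051 and 3901.

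Chains that were not called could take the other sign on the log2 scale when 1 library was left out. Between the old fractions the values ran from -0.285 to 0.101 for Col17a1, from -0.0608 to 0.390 for Col27a1 and from -0.0426 to 0.0681 for Col5a2. From young to old GSH-high they ran from -0.150 to 0.129 for Col17a1, which was 0.0679 with the same RPKM sum, from -0.0630 to 0.130 for Col19a1 and from -0.0015 to 0.685 for Col20a1. From young to old GSH-low they ran from -0.296 to 0.0902 for Col17a1, from -0.353 to 0.0976 for Col27a1 and from -0.257 to 0.0366 for Col6a2. The cause was not tested. Chains under 100 reads in a library, such as Col4a6, Col8a2, Col13a1 and Col22a1 in young cells, are limited by counting error and by the pseudocount.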
